A study of Mus musculus with 6 samples.

Results

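The carboxylesterases described here are 10 genes of the families Ces1, Ces2 and Ces3 (Ces1b, Ces1c, Ces1d, Ces1e, Ces1f, Ces1g, Ces2a, Ces2c, Ces2e and Ces3a). They were taken by symbol from a table of 34745 mouse genes, and all 10 were found and passed the filter on low counts. The data were bulk RNA-Seq of livers from WT mice given acetaminophen (APAP, 300 mg/kg for 12 hours) or saline, after a fast of 12 hours. The study describes its mice as male C57BL/6J animals aged 8 to 10 weeks and the injection as intraperitoneal. The labels list 3 livers per group, and 5 libraries were analysed, namely APAP replicates 1 and 3 and the saline libraries WT1, WT2 and WT3. APAP replicate 2 was not analysed here. The names WT1 to WT3 do not match the numbered saline samples, so these libraries were used as the saline group without numbers, and every difference given here rests on that reading. Each numbered sample was treated as a separate liver, and if any were not, the p-values measure only the spread between samples.

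Carboxylesterases are serine hydrolases that split ester, thioester and amide bonds. In hepatocytes most of them sit in the lumen of the endoplasmic reticulum, held there by a retrieval signal at the end of the protein, where they hydrolyse ester drugs and toxicants and also stored triglyceride that is then re-esterified for very-low-density lipoprotein (VLDL). Mice carry many tandem copies of the genes where humans have few, and unlike human plasma, mouse plasma contains a large amount of a secreted carboxylesterase. Several of the genes are known targets of the xenobiotic receptors PXR and CAR.

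The libraries differed in more than the treatment. Total counts were between 13378445 and 15976339 per library, and all 10 carboxylesterases had at least 55 counts in every library. Xist, which is transcribed from the inactive X chromosome of female cells, was at 0.764 and 1.73 CPM (counts divided by the library size, after TMM scaling for library composition) in APAP replicates 1 and 3 and at 290, 914 and 882 CPM in WT1, WT2 and WT3. Ddx3y, on the Y chromosome, was at 79.0 and 61.7 CPM in APAP, against 0, 0 and 1 counts in WT1, WT2 and WT3. The saline libraries therefore carried the sex-linked transcripts of female livers and the APAP libraries those of male livers, which differs from the description of all mice as male, and for every gene below the effects of APAP and of sex cannot be told apart. The summed level of 14 female-biased liver genes was 2557, 2325 and 2745 CPM in the saline libraries and 419 and 132 CPM in the APAP libraries. At an adjusted p under 0.05 by edgeR, 10 of the 14 were lower in APAP, where 3.53% of all tested genes were. Of 10 tested male-biased genes 0 were called by edgeR. At an unadjusted P under 0.05 with a 1.5-fold change 6 were higher, where 12.3% of all tested genes were. The summed level of the male-biased list was 180 CPM in APAP replicate 1, 2480 CPM in APAP replicate 3 and between 129 and 299 CPM in saline. The labelled tissue was matched by its markers, since albumin (Alb) was among the most abundant transcripts with 51544 and 89798 CPM in APAP against 129117, 95101 and 120393 CPM in saline. In bulk RNA, fewer cells of a type and less RNA per cell cannot be told apart.

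All 10 genes lie on chromosome 8 in 2 groups of neighbours (GRCm38). The 6 Ces1 members occupy 280.6 kb of the minus strand between 93056727 and 93337308. The Ces2 and Ces3 members occupy 324.4 kb of the plus strand between 104734003 and 105058414, and 11.4 Mb separate both groups. The closest pairs by sequence were Ces1b with Ces1c, whose longest transcripts were 84.8% identical over their alignment, and Ces2a with Ces2c, at 79.8%. These pairs are shown by the bases upstream of their start sites, because the genes of the first pair shared a direction and those of the second had opposite ones in the counts described below. The sequences are from RefSeq (GRCm38.p6), 5′ to 3′ on the strand of the gene, and end just before the start site, which for Ces1b is the most upstream of the start sites in RefSeq. They are chr8:93080018-93080190 (minus strand) for Ces1b, chr8:93131284-93131533 (minus strand) for Ces1c, chr8:104733753-104734002 (plus strand) for Ces2a and chr8:104846818-104847067 (plus strand) for Ces2c. Capitals mark matches to the letters searched.
Ces1b: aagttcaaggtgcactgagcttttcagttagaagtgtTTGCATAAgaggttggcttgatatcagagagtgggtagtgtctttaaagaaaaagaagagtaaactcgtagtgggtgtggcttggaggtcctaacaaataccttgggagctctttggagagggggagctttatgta
Ces1c: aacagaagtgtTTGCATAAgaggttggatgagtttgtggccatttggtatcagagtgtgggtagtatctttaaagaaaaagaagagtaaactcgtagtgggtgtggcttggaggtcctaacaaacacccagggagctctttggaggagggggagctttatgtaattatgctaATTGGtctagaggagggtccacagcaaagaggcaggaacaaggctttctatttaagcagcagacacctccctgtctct
Ces2a: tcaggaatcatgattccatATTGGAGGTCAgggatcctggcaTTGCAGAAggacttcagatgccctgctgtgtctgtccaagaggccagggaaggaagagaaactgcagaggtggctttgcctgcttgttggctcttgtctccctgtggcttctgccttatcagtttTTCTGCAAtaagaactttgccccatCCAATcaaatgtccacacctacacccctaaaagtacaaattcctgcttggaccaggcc
Ces2c: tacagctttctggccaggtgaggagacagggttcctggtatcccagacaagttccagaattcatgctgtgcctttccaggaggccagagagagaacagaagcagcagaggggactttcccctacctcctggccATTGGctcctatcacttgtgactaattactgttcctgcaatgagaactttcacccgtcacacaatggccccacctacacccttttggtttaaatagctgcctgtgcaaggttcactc

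The letters searched on both strands were TATAAA for the box bound by TBP, CCAAT for the box bound by NF-Y, AGGTCA for the half-site of nuclear receptors, GTTAAT for the half-site of HNF1, TTGCNNAA for C/EBP factors and TGACNNNGC for the core of the antioxidant response element, in windows from 250 bases before to 50 bases after the start site. In Ces2a the first CCAAT and AGGTCA matches adjoin without sharing a base. Ces1b and Ces1c share the word TTGCATAA, and both hold 1 CCAAT box, which in Ces1b lies at position 10 counted from the start site used for the printed sequence and so is not shown. The Ces1c window was 51.7% identical to the window of that Ces1b start site and 78.6% identical to the window of the other, more downstream Ces1b start site. By the same end-to-end alignment the 2 overlapping Ces1b windows were 59.2% identical to each other. Ces1c and Ces2a, of different families, reached 52.0%, so a value near 51.7% is no sign of likeness. Ces2a holds 2 C/EBP words, 2 CCAAT boxes and 1 nuclear receptor half-site, while Ces2c holds 1 CCAAT box and none of the others, at 66.9% identity. Of all 32851 promoter windows in RefSeq, 10.8% hold TTGCNNAA, 37.4% CCAAT, 16.3% AGGTCA, 13.6% TATAAA, 7.1% GTTAAT and 12.4% TGACNNNGC. These matches describe letters in a window and no binding was measured. RefSeq windows were found for 7 of the 10 genes, those other than Ces1d, Ces1f and Ces3a. Among the genes with a window but not printed, Ces1e matched none of the letters, Ces1g only TATAAA and CCAAT, and Ces2e only TTGCNNAA. Whether any of these letters go with the fold changes below was not tested.

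Among the 10 carboxylesterases, 5 genes of the Ces1 family fell and the Ces2 and Ces3 members did not pass the test. In edgeR's quasi-likelihood test, with p-values adjusted by Benjamini-Hochberg over 13734 genes, 5 of the 10 were lower in APAP at an adjusted p under 0.05 and 0 were higher, where 3.53% of all tested genes were lower and 3.7% were higher. All 5 were Ces1 genes, out of 6 Ces1 members, against 0 of the 4 Ces2 and Ces3 members, and this difference between families was not tested. At the thresholds named by the study (unadjusted P under 0.05 and a fold change of at least 1.5) 7 of the 10 were lower and 1 was higher, where 11.2% and 12.3% of all tested genes were. The groups did not overlap for 7 of the 10 on the lower side and for 1 on the higher side, where 20.1% and 24.0% of all tested genes were so separated. The median log2 fold change of the 10 was −1.80, against 0.03 for all tested genes. With library size as the only scaling the median of all genes rose to 0.42, the calls over all genes became 297 lower and 1042 higher in place of 485 and 508, and those of the carboxylesterases 5 lower and 1 higher (Ces2c).

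**Figure D1:**
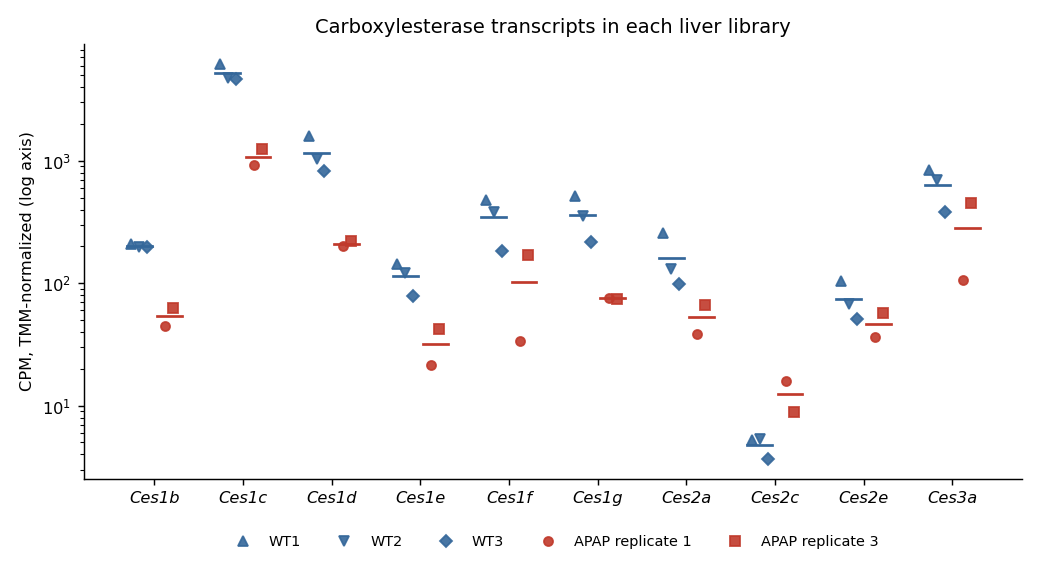
Level of each carboxylesterase gene in each library, in TMM-normalized CPM on a log axis. Symbols are single libraries (blue, saline; red, APAP) and horizontal lines are group means (n = 3 saline and n = 2 APAP libraries); all 6 Ces1 genes and Ces2a lie lower in both APAP libraries than in every saline library, Ces2c lies higher, and Ces2e and Ces3a overlap.

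Ces1c, the secreted carboxylesterase of mouse plasma, was the most abundant member. It was at 919 and 1237 CPM in APAP replicates 1 and 3 and at 6204, 4739 and 4697 CPM in WT1, WT2 and WT3. Both APAP libraries lay far below every saline library. The mean fell to 20.7% of the saline mean, a log2 fold change of −2.27 (SE 0.37, adjusted p = 0.0185, edgeR). The SE given for each gene is the size of the log2 fold change divided by the square root of its F statistic.

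Ces1d, known as triacylglycerol hydrolase, mobilises stored hepatic triglyceride for VLDL. Its level was 201 and 219 CPM in the APAP libraries against 1604, 1039 and 833 CPM in WT1, WT2 and WT3. The APAP values lay close to each other and the lowest saline library was well above both. It had the lowest log2 fold change of the 10 genes, −2.46 (SE 0.38, adjusted p = 0.0162, edgeR), or 18.2% of the saline mean.

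Ces1g, an esterase of the endoplasmic reticulum with triglyceride hydrolase activity, was at 76.3 and 74.5 CPM in APAP and at 514, 357 and 216 CPM in WT1, WT2 and WT3. The APAP libraries were nearly equal, whereas the saline libraries spanned a 2.38-fold range. The log2 fold change was −2.26 (SE 0.40, adjusted p = 0.0249, edgeR).

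Ces1b, the close relative of Ces1c shown above, was at 45.0 and 63.0 CPM in APAP and at 209, 198 and 199 CPM in WT1, WT2 and WT3. It had the tightest saline values of the 10 genes, with a 1.05-fold range. The log2 fold change was −1.90 (SE 0.25, adjusted p = 0.0101, edgeR), with the smallest adjusted p of the 10. Counts of Ces1b per 100 counts of Ces1c were 4.90 and 5.09 in APAP, compared with 3.36, 4.18 and 4.24 in saline. The groups of ratios did not overlap, but they differed far less than the level of either gene. Ces1c shares 10.7% of its 50-base words with Ces1b, and Ces1b 9.92% of its own with Ces1c. Ces1c had between 15634 and 71339 counts per library and Ces1b between 766 and 2979. Reads of the far more abundant Ces1c could therefore be a large part of the Ces1b count, and that part was not measured. Both the level and the fold change of Ces1b are uncertain for that reason, and its call may not be separate from that of Ces1c.

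Ces1e, or egasyn, is the esterase that holds β-glucuronidase in the endoplasmic reticulum. It was at 21.5 and 42.3 CPM in APAP and at 143, 121 and 78.8 CPM in WT1, WT2 and WT3. The groups did not overlap, and the log2 fold change was −1.84 (SE 0.40, adjusted p = 0.0413, edgeR). Gusb, which encodes β-glucuronidase, had a log2 fold change of −0.49 (adjusted p = 0.230, edgeR), with 22.3 and 23.4 CPM in APAP and 35.2, 25.9 and 35.1 CPM in saline.

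Ces1f, another triglyceride hydrolase of the family, was the Ces1 member that did not pass the test. It was at 34.0 and 171 CPM in APAP replicates 1 and 3 and at 478, 382 and 182 CPM in WT1, WT2 and WT3. APAP replicate 3 lay just under WT3, while replicate 1 was 5.02-fold lower than replicate 3. The log2 fold change was −1.76 (SE 0.72, adjusted p = 0.189, edgeR), and it became −1.02 with APAP replicate 1 left out and −3.37 with replicate 3 left out. Only 2.88% of all tested genes differed more between the APAP libraries, whose median gene differed 1.25-fold. The male-biased genes given above also differed between these libraries, and their part in this spread was not tested.

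The calls among the Ces1 genes depended on single libraries. Of the 10 carboxylesterases, 0 passed an adjusted p of 0.05 without APAP replicate 1 (5 at an unadjusted P under 0.05), 0 without WT2 (7 at an unadjusted P), 1 without APAP replicate 3 (Ces1b), 4 without WT1 (not Ces1e) and 5 without WT3, by edgeR's quasi-likelihood test. Over all tested genes the same fits called 235, 165, 401, 510 and 922 genes, against 993 with all libraries. The log2 fold changes of the 5 called genes stayed between −2.65 and −1.43 in these fits.

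**Figure D2:**
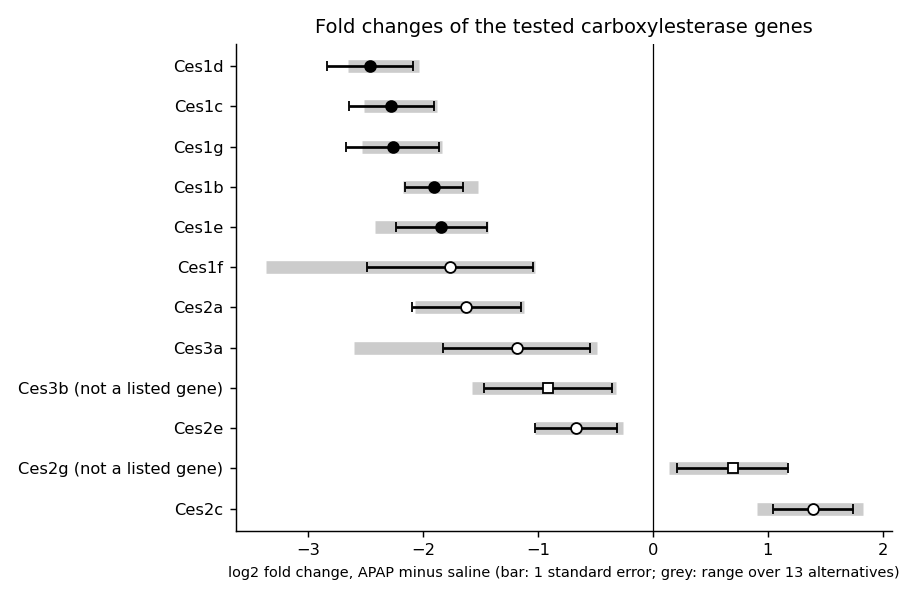
log2 fold change (APAP minus saline) of the 10 carboxylesterases and of Ces2g and Ces3b, by edgeR, with bars of 1 standard error and grey bands for the range over 13 alternative fits, in which a library was left out, or the normalization, filter or test was changed. Filled symbols had an adjusted p under 0.05, circles are the 10 genes and squares the other tested Ces genes; the widest bands are those of Ces1f (−3.37 to −1.02) and Ces3a (−2.60 to −0.48).

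Among the Ces2 genes, whose products prefer esters with a small acyl group and also hydrolyse acylglycerols, Ces2a and Ces2c had fold changes of opposite sign. Ces2a was at 38.8 and 66.4 CPM in APAP and at 256, 131 and 99.1 CPM in WT1, WT2 and WT3. Both APAP libraries lay below all saline libraries, whose range was 2.58-fold, and the log2 fold change of −1.62 (SE 0.47) did not pass the test (adjusted p = 0.0886, edgeR). In 4 of 13 alternatives the adjusted p was under 0.05, the smallest being 0.00554 with DESeq2 and the largest 0.381.

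Ces2c was the single member with a higher level in APAP. It was at 16.0 and 8.84 CPM in APAP replicates 1 and 3 and at 5.20, 5.31 and 3.67 CPM in WT1, WT2 and WT3, from 273, 143, 58, 80 and 55 counts. The mean in APAP was 2.63-fold that in saline (log2 fold change 1.40, SE 0.35), which missed the threshold (adjusted p = 0.0601, edgeR). In 6 of 13 alternatives it was under 0.05, with a range from 0.0122 to 0.349. Its log2 fold change was between 0.91 and 1.82 in all 13.

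The counts of both genes within a library show the contrast without any scaling between libraries. For each 100 counts of Ces2a there were 41.4 and 13.3 counts of Ces2c in APAP replicates 1 and 3, and 2.03, 4.06 and 3.71 in WT1, WT2 and WT3. This pair was singled out after its values were seen, so the ratios are a description. Of the words of 50 bases in the Ces2c transcript, 42.2% also occur in other genes, with 38.2% in the pseudogene Ces2d-ps, which had 1 count over the 5 libraries. Ces2a shares 22.2% of its words, mostly with Gm7208, which was not analysed here. The counting rule for reads that match several genes is not given in the sources used here, so the levels of Ces2a and Ces2c are uncertain to that extent.

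Ces2e, a further Ces2 esterase, was at 36.7 and 56.9 CPM in APAP and at 104, 68.0 and 51.2 CPM in WT1, WT2 and WT3. APAP replicate 3 was above WT3, so the groups overlapped, and the log2 fold change was −0.67 (SE 0.35, adjusted p = 0.303, edgeR). Against Ces1d the difference was wide, with 18.2 and 26.0 counts of Ces2e per 100 counts of Ces1d in APAP and 6.47, 6.54 and 6.15 in saline. Ces1d had the lowest log2 fold change of the listed genes (−2.46), so a wide difference in this ratio follows from the choice of the pair.

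Ces3a, an abundant esterase of the hepatocyte endoplasmic reticulum, differed more between the APAP libraries than any other member but Ces1f. It was at 106 and 454 CPM in APAP replicates 1 and 3 and at 836, 696 and 379 CPM in WT1, WT2 and WT3. Replicate 3 lay above WT3, so the groups overlapped, and the APAP libraries differed 4.28-fold. The log2 fold change was −1.18 (SE 0.64, adjusted p = 0.307, edgeR), and it became −0.48 with APAP replicate 1 left out and −2.60 with replicate 3 left out. Ces3a shares 30.9% of its 50-base words with Ces3b, and the summed level of both was 141 and 529 CPM in APAP and 1008, 782 and 430 CPM in saline, again with overlap.

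Of the 10 other genes of the table with a Ces symbol, 2 passed the filter on low counts, Ces2g and Ces3b, and neither passed the test. Ces2g was at 43.1 and 22.2 CPM in APAP and at 30.9, 19.9 and 9.95 CPM in saline (log2 fold change 0.69, adjusted p = 0.428, edgeR). Ces3b was at 34.9 and 74.4 CPM in APAP and at 171, 86.3 and 51.2 CPM in saline (log2 fold change −0.91, adjusted p = 0.363, edgeR). Ces1a had at most 8 counts and Ces4a 23 and 4 counts in APAP and 0, 2 and 0 in saline, whereas Ces1h, Ces2b, Ces2f and Ces5a had 0 counts in all libraries. Ces2h and Ces2d-ps had 5 counts and 1 count in all. A count of 0 allows up to 3 counts, or between 0.176 and 0.269 CPM, for counting error only.

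**Figure D3:**
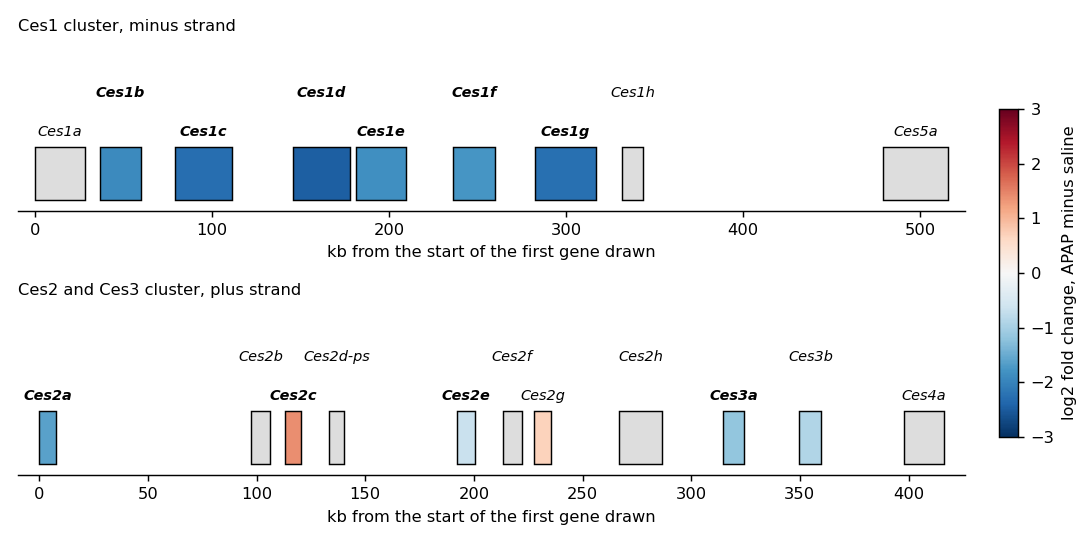
Position of the Ces genes in both groups on chromosome 8, in kb from the start of the first gene drawn, coloured by the log2 fold change (APAP minus saline); grey genes were not tested and the 10 listed genes are in bold. The 6 tested genes of the Ces1 group are all blue (lower), while the Ces2 and Ces3 group holds blue genes and the red Ces2c and Ces2g. Untested genes lie on both sides of each red gene, and no gene of the Ces2 and Ces3 group passed the test.

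The genes around the Ces groups were compared with them. Within 500 kb of the Ces1 members, 2 other genes were tested and 0 were called (log2 fold changes −1.17 and 0.08). Within 500 kb of the Ces2 and Ces3 members, 28 were tested and 0 were called by edgeR, with a median log2 fold change of 0.14 and a range from −1.33 to 2.35. Over all tested genes 3.53% were called lower and 3.7% higher, so 0 calls among so few genes do not set them apart from other genes. Ces1d is overlapped on its own strand by Gm45909 and Ces3a on the other strand by Gm45724, so that reads in the overlap cannot be assigned to Ces1d alone, nor to Ces3a alone where strand was not used.

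Levels of different genes were compared per length, as CPM per kb of exon. In saline, Ces1c stood first at 2244 ± 369 CPM per kb (SD, n = 3), followed by Ces1d at 489 ± 168 and Ces3a at 243 ± 89.1. Ces1g (152), Ces1f (106), Ces1b (103), Ces2a (68.6), Ces1e (52.2) and Ces2e (27.5) came next as means in CPM per kb, and Ces2c was last at 2.06 ± 0.398. The values of Ces1c, Ces1d and Ces2c did not overlap with those of their neighbours in this order, while all neighbours from Ces3a to Ces2e overlapped. In APAP, Ces1c was again first at 464 ± 97.0 CPM per kb (SD, n = 2) and Ces2c last at 5.41 ± 2.22. Ces3a at 107 ± 93.8 and Ces1d at 88.8 ± 5.32 came next and overlapped, so their order is not resolved. The span from the first to the last gene was therefore narrower in the APAP libraries.

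Together the 10 genes made up 0.810%, 0.758% and 0.631% of all counts in WT1, WT2 and WT3 and 0.190% and 0.261% in APAP replicates 1 and 3. Their summed level was 10352, 7736 and 6739 CPM in saline and 1494 and 2393 CPM in APAP, so that the APAP mean was 23.5% of the saline mean. The Ces1 members summed to 21.0% of their saline level, the Ces2 members to 46.4% and Ces3a to 44.0%. Ces1c supplied 59.9%, 61.3% and 69.7% of the summed CPM in WT1, WT2 and WT3 and 61.5% and 51.7% in APAP, so its share overlapped between the groups. Without Ces1c, the sum of the other 9 was 4148, 2997 and 2042 CPM in saline and 576 and 1156 CPM in APAP. In TMM-normalized CPM, 9 of the 10 genes were highest in WT1 among the saline libraries, 9 were lowest in WT3, and 8 were higher in APAP replicate 3 than in replicate 1. These orders depend on the scaling, since the TMM factor was 0.783 in WT1, 0.980 in WT2 and 0.938 in WT3. The lower factor raises every CPM in WT1, and the share of all genes with the same orders was not computed.

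**Figure D4:**
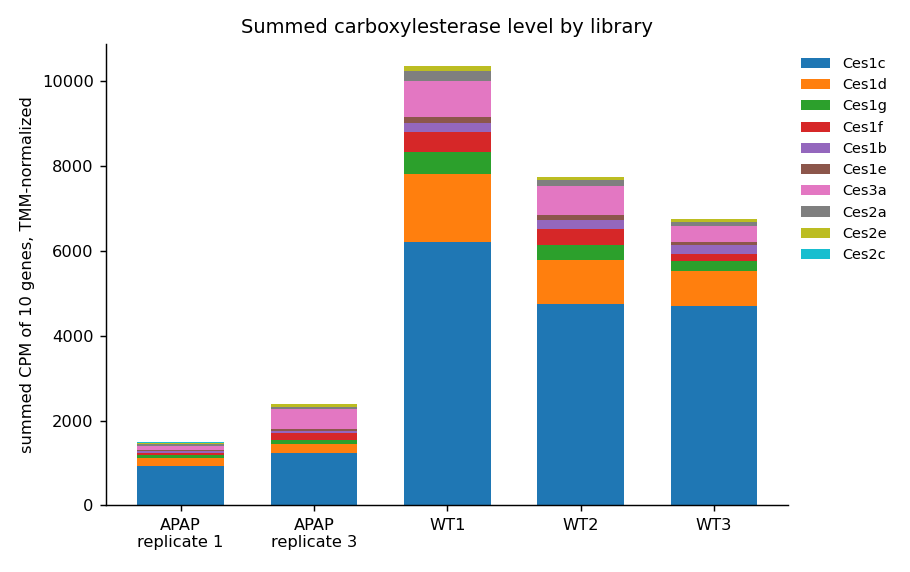
Summed level of the 10 carboxylesterase genes in each library, as stacked TMM-normalized CPM from 0, with 1 colour per gene. The APAP libraries reach 1494 and 2393 CPM and the saline libraries between 6739 and 10352 CPM, with Ces1c as the largest piece of every bar.

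Other genes of ester and lipid handling, from lists drawn up with earlier results of these data known, were read from the same fit. Of 20 other esterases and lipid hydrolases, 4 fell and 0 rose, where 3.53% and 3.7% of all tested genes did. The median log2 fold change of the 20 was −0.30. Those that fell were Lipc, which encodes hepatic lipase (−2.82, adjusted p = 0.0204), Pon1, the paraoxonase of high-density lipoprotein (−2.66, adjusted p = 0.00981), Bche, butyrylcholinesterase (−1.39, adjusted p = 0.0191), and Pon3 (−1.10, adjusted p = 0.0321), all by edgeR. Pon3 was named after its values were seen. Aadac, a microsomal arylacetamide deacetylase, was at 199 and 293 CPM in APAP and 640, 551 and 398 CPM in saline, which did not pass the test (log2 fold change −1.11, adjusted p = 0.0898, edgeR).

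Of 12 genes of triglyceride storage and lipoprotein assembly, 2 rose and 0 fell, with a median log2 fold change of −0.17. At an unadjusted P under 0.05 with a 1.5-fold change 3 were higher and 3 lower. Over all tested genes 3.7% were called higher and 3.53% lower, and at the unadjusted threshold 12.3% and 11.2%. The 2 listed genes that rose both encode lipid droplet proteins, Cidec (log2 fold change 5.98, adjusted p = 0.0136) and Plin2 (2.49, adjusted p = 0.0352, both by edgeR). Plin2 was at 1903 and 1616 CPM in APAP and at 290, 143 and 505 CPM in saline. Mttp, which loads triglyceride onto apolipoprotein B, was at 398 and 332 CPM in APAP and 384, 258 and 375 CPM in saline (log2 fold change 0.11, adjusted p = 0.850, edgeR). Of 10 tested genes of lumenal retention in the endoplasmic reticulum, Gusb included, 0 were called by edgeR, with a median log2 fold change of 0.43 and 1 gene past an unadjusted P of 0.05 and a 1.5-fold change.

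Of 15 regulators of drug-metabolizing enzymes, 1 fell and 0 rose, where 3.53% and 3.7% of all tested genes did. So 1 call among 15 genes does not set this list apart from other genes. Its median log2 fold change was −0.55. At an unadjusted P under 0.05 with a 1.5-fold change, 4 were lower and 0 higher, where 11.2% and 12.3% of all tested genes were. The groups did not overlap for 9 on the lower side and 1 on the higher side, against 20.1% and 24.0% of all tested genes. The gene that fell was Cebpa, a C/EBP factor of hepatocytes, at 109 and 86.1 CPM in APAP and 287, 254 and 205 CPM in saline (log2 fold change −1.35, adjusted p = 0.0330, edgeR). Nr1i2, which encodes PXR, was at 63.4 and 64.3 CPM in APAP and 76.3, 92.4 and 107 CPM in saline, without overlap (log2 fold change −0.52, adjusted p = 0.208, edgeR). Nr1i3, which encodes CAR, was at 284 and 195 CPM in APAP and 254, 611 and 580 CPM in saline, with WT1 among the APAP values. Its log2 fold change was −1.01 (adjusted p = 0.206, edgeR). Hnf4a, a regulator of hepatocyte identity (−0.95, adjusted p = 0.172), and Nfe2l2, which encodes NRF2 (0.30, adjusted p = 0.427), did not pass edgeR's test either.

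**Figure D5:**
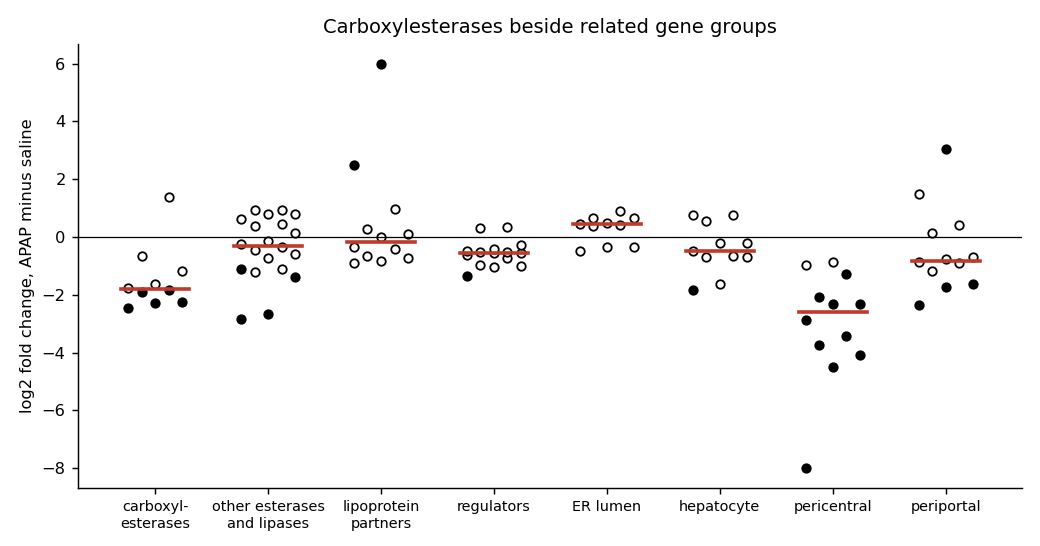
log2 fold change (APAP minus saline) of the carboxylesterases and of related gene groups, where each point is a tested gene, filled points had an adjusted p under 0.05 by edgeR and red lines are medians. The median was −1.80 for the carboxylesterases, −0.30 for other esterases and lipases, −0.50 for hepatocyte markers, −2.61 for pericentral and −0.82 for periportal hepatocyte markers.

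Markers of pericentral hepatocytes and of neutrophils differed between the groups as well. For the counts of calls that follow, 3.53% of all tested genes were called lower and 3.7% higher. Of 12 pericentral hepatocyte markers, which mark the zone around the central vein, 10 fell and 0 rose, with a median log2 fold change of −2.61. Their summed level was 1330 and 2369 CPM in APAP replicates 1 and 3 and 15012, 10810 and 9168 CPM in WT1, WT2 and WT3. This was the same order of libraries as for the summed carboxylesterases. The 20 other esterases and lipid hydrolases had that order too, at 1850 and 2035 CPM in APAP and 4779, 3753 and 3490 CPM in saline. Such orders depend on the scaling, and the share of all genes with the same order was not computed. Of 12 periportal markers 3 fell (Gls2, Ass1 and Cyp2f2) and 1 rose (Sox9, also a gene of bile duct cells), with a median of −0.82, and of 11 general hepatocyte markers 1 fell (Apoa2) and 0 rose (median −0.50). All 4 defining neutrophil markers rose, from a summed level of between 3.76 and 7.08 CPM in saline to 95.5 and 64.6 CPM in APAP. Of the wider marker lists, 7 of 9 neutrophil genes, 2 of 10 macrophage and monocyte genes (Chil3 and Ccr2), 1 of 8 stellate cell genes (Col1a1) and 0 of 8 endothelial genes rose, and 0 of any of them fell. The defining markers of macrophages (4 genes), endothelial cells (3) and stellate cells (3) had 0 calls by edgeR, and also 0 at an unadjusted P under 0.05 with a 1.5-fold change. The 8 markers of adipocytes and kidney, where related carboxylesterases are also expressed, summed to 5.46 and 0.680 CPM in APAP and to 0, 1.33 and 4.48 CPM in saline, and 1 of them was tested (Cfd), without a call. The part of these cells in the levels of the carboxylesterases was not tested.

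As a further scale, chosen after seeing the data, the counts of each carboxylesterase were divided by those of 6 hepatocyte markers (Alb, Ttr, Apoa1, Apoa2, Ahsg and Ambp), which held 8.73% and 12.9% of all counts in APAP replicates 1 and 3 and 13.2%, 11.8% and 13.9% in WT1, WT2 and WT3. Of these 6 markers, 5 had a negative log2 fold change and 1 (Apoa1) a positive one. Apoa2 was called lower (log2 fold change −1.85, adjusted p = 0.0404, edgeR). Alb, by far the most abundant of the 6, was not called (log2 fold change −0.70, adjusted p = 0.512, edgeR). The marker shares of all counts overlapped between the groups. In TMM-normalized CPM the 6 summed to 68659 and 118157 in APAP and to 168260, 120694 and 148329 in saline, without overlap. The scale itself may therefore differ between the groups, which was not tested. On this scale 6 genes were lower in both APAP libraries than in every saline library, namely Ces1b, Ces1c, Ces1d, Ces1e, Ces1g and Ces2a. The share of all genes so separated on this scale was not computed. Ces1c was at 13.4 and 10.5 counts per 1000 marker counts in APAP and at 36.9, 39.3 and 31.7 in saline. Ces2c was higher in both APAP libraries, at 0.234 and 0.0748 against 0.0309, 0.0440 and 0.0248 counts per 1000 marker counts. Ces1f, Ces2e and Ces3a overlapped between the groups.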

How the data were processed

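Liver RNA was sequenced from WT mice given APAP or saline. The authors deposited raw read counts per gene, obtained with HISAT2, and FPKM, of which only the counts were used. The build GRCm38 is from the submitters' processing notes, while the annotation, strand setting and program versions are not given in the sources used here. All 5 count columns were used, with APAP replicates 1 and 3 and the WT columns as saline.

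The analysis used edgeR 4.0.16 under R 4.3.3. After filterByExpr, set to a minimum count of 10 and a minimum total of 15, counts were normalized by TMM and tested by the quasi-likelihood test with Benjamini-Hochberg adjustment over 13734 genes. The script was tested on simulated data. Alternatives were other normalizations, filters, thresholds and tests (likelihood ratio, exact, DESeq2 1.42.0) and each library left out. Floors cover counting error only, since reads carry no molecular identifiers. The standard errors come from the quasi-likelihood fit and include the spread between libraries.

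The members and gene lists were chosen with earlier results of these data known. Named genes were the 10 members, the other Ces genes, and up to 3 genes per direction of each other list by unadjusted P, of which only those that bear on the carboxylesterases are given, plus Nr1i2, Nr1i3, Nfe2l2, Hnf4a, Aadac, Mttp, Gusb, Alb, Xist and Ddx3y. Shared words, exon lengths and transcripts were from GENCODE M21, promoters from RefSeq. Python 3.11.15 and matplotlib 3.10.9 were used for sequences and plots. Of 12 hepatocyte markers listed 11 were in the table.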

Additional observations from a re-analysis of the deposited data

How the results depend on the processing

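The count of carboxylesterases past the threshold was 5. It was 5 with size factors (RLE) or upper-quartile factors, 6 with library size only or with at least 10 counts in every library, 7 with no filter, the likelihood ratio test, the exact test or an adjusted p under 0.1, and 8 both with DESeq2 (7 lower, 1 higher) and at an unadjusted P under 0.05 with a 1.5-fold change. Leaving out 1 library gave between 0 and 5, and the lone APAP library was then assumed to vary like the saline group. Over all genes the count was 993. It was 1835 with the likelihood ratio test, 1776 with the exact test, 2093 with DESeq2, 1901 at an adjusted p under 0.1, 3228 at an unadjusted P under 0.05 with a 1.5-fold change, and between 165 and 922 with a library left out. With library size only, the median of all genes moved to 0.42 and 77.8% of the calls were higher, against 51.2% with TMM. Over the members and alternatives, 104 fold changes kept direction and side of the threshold, 15 lost and 11 gained the call, and 0 changed direction. The cause was not tested. On raw shares of the library, the summed level in APAP was 30.8% of saline in place of 23.5%. The study describes no pairing of saline and APAP livers, and the replicate numbers that both groups share are not known to mark pairs. No paired analysis was possible because the names of the saline columns carry no match to the numbered saline samples. Every member had at least 55 counts in each library, and what limits the number of calls was not tested.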
